A study of Mus musculus with 6 samples.

Results

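The BCL2 family decides whether the outer membrane of the mitochondrion stays intact, and 10 of its genes are described here out of 55536 genes counted in CAD cells. They are 4 anti-apoptotic genes (Bcl2, Bcl2l1, Bcl2l2 and Mcl1), 2 effectors (Bax and Bak1) and 4 genes of BH3-only proteins (Bcl2l11, Hrk, Bbc3 and Pmaip1). The set was given by gene name, and each symbol matched a single Ensembl identifier. CAD is a catecholaminergic cell line that comes from the mouse brain, from a C57BL/6 x DBA/2 background, described as transformed with simian virus 40. Whether these cells make the large T antigen of the virus was not measured. mRNA was sequenced from 3 libraries of undifferentiated, proliferating cells in 8% fetal bovine serum and 3 libraries of cells kept for 5 days in 100 µM dexamethasone, a synthetic glucocorticoid, with 1% serum. Steroid, serum and time differed together, so every difference below belongs to that combination. All libraries come from a single line. The samples are described as independent, with no word on separate cultures, so the p-values reflect sample spread that may be only technical.

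BAX and BAK, the effectors, open pores in the outer membrane, and the cytochrome c that escapes starts the caspases. The anti-apoptotic proteins hold the effectors and the BH3-only proteins in check. BH3-only proteins bind and neutralise the anti-apoptotic proteins, and some also activate the effectors directly; they are induced by loss of trophic factors, DNA damage and other stresses. In developing neurons deprived of nerve growth factor, BIM (Bcl2l11), PUMA (Bbc3) and HRK, also called DP5, are known to be induced, and in lymphoid cells glucocorticoids are known to induce BIM.

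Effector genes were lower and BH3-only genes higher in dexamethasone-differentiated cells, while the anti-apoptotic genes moved both ways. Hrk rose 3.67-fold, Bbc3 3.10-fold and Bcl2l11 1.73-fold. Bak1 fell 2.63-fold and Bax 1.67-fold. Among anti-apoptotic genes Bcl2l1 rose 2.44-fold and Bcl2 1.80-fold, Mcl1 fell 1.47-fold, and Bcl2l2 did not pass the test. Pmaip1 had no read in any library. Of the 9 members that could be tested 5 were called higher and 3 lower, a call being an adjusted p under 0.05 (Benjamini-Hochberg) in the quasi-likelihood test of edgeR. Over all 12664 tested genes 40.3% were called higher and 38.6% lower, 78.9% in either direction. Being called is therefore common in this comparison, and 8 calls among 9 members is near that background. The median absolute log2 fold change was 0.85 over the tested members and 0.61 over all tested genes, and the signed medians were 0.79 and 0.02. A change of at least 2-fold was fitted for 4 of the 9 members and for 30.0% of tested genes.

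**Figure D1:**
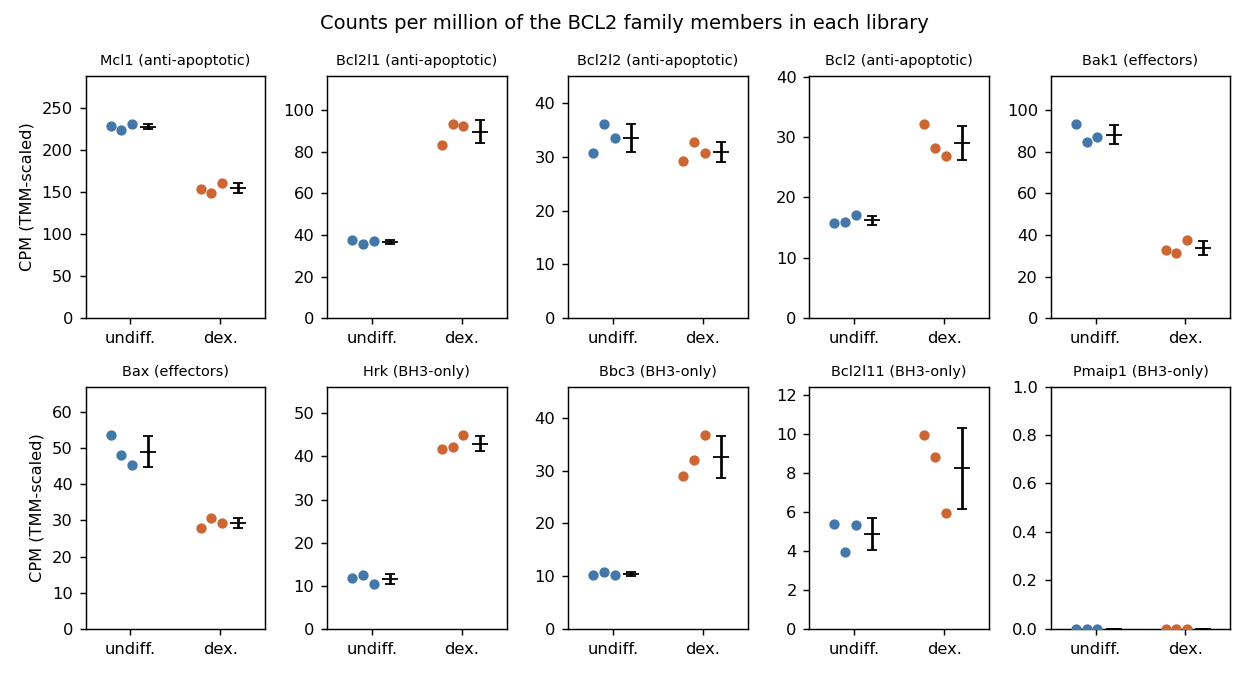
CPM (reads of a gene scaled to library size by TMM; linear axis from 0, scaled per gene) of the 10 members. Points are the 3 libraries of undifferentiated (blue) and dexamethasone (orange) cells, and bars are the mean ± SD. The groups are apart in 8 members, overlap in Bcl2l2, and lie at 0 in Pmaip1.

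Windows before start sites of Bcl2l11, Bbc3 and Bax are shown that hold a match to the motif of a known regulator. FOXO factors are known to activate Bcl2l11 and Bbc3, and p53 to activate Bax and Bbc3. Genes of these regulators are among those tested here. The other windows of Bcl2l11 and Bbc3 hold no FOXO match, and no Bbc3 window holds a p53 repeat. A Bcl2l1 window with the E2F motif given below is not shown. The sequences shown are the 250 bases before a RefSeq start site, on the gene's strand and 5′ to 3′, from RefSeq on GRCm38.p6. Capitals mark matches to the FOXO motif GTAAACA or its reverse complement in Bcl2l11 and Bbc3, and in Bax a single p53 consensus repeat (further from the start) and the E-box CACGTG (at the start). They lie at chr2:128125788-128126037 on the plus strand, chr7:16310011-16310260 on the plus strand and chr7:45466899-45467148 on the minus strand.
Bcl2l11: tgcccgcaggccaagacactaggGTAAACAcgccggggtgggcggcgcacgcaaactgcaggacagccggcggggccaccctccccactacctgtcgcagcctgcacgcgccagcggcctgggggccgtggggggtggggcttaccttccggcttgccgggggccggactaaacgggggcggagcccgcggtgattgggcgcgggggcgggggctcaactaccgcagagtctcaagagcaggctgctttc
Bbc3: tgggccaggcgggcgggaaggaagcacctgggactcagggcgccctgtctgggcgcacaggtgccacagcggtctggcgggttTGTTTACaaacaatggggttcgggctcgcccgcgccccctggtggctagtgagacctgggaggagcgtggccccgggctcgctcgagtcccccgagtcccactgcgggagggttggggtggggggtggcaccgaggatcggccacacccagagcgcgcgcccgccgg
Bax: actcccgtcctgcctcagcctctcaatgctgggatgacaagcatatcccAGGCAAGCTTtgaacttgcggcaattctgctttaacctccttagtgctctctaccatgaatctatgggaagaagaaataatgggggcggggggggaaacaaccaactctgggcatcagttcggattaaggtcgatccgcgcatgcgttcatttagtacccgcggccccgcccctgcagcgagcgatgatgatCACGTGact
The Bcl2l11 match lies 227 to 221 bases before the start and the Bbc3 match 167 to 161 bases before it. The Bbc3 window belongs to the middle of 3 RefSeq start sites. It lies downstream of the start site that comes first, within the annotated span of the gene. In Bax the p53 repeat lies 201 to 192 and the E-box 9 to 4 bases before the start.

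The RefSeq promoter table held 14 start sites for 9 members. The FOXO motif was found in 2 of these 14 windows (Bcl2l11 and Bbc3) and in 3.17% of 32536 promoter windows of the same length. The p53 match is a single 10-base repeat, and a full p53 site holds a pair of such repeats, so it is not a full site. It was found in 1 of the 14 windows (Bax) and in 7.12% of all windows. CACGTG was found in 2 of the 14, in Bax and before another start site of Bbc3 (6.04% of all windows). An E2F motif (TTTCGCGC, TTTGGCGC or TTTCCCGC) was found in 1, in Bcl2l1 (1.55%). Neither TGTTCT, the core of the glucocorticoid receptor motif (16.0% of all windows), nor the cyclic AMP response element TGACGTCA (1.56%) was in any of the 14 windows. The windows of Hrk, Bcl2, Mcl1, Bcl2l2 and Bak1 held none of the motifs searched. Both strands were searched for every motif, and the motifs do not overlap one another in these windows. A match describes letters and not binding, and 250 bases leave out distant elements. The windows of Bcl2 (74.8% G or C), Bcl2l11 (72.0% and 73.2%) and Bbc3 (72.4% to 81.6%) were far richer in G and C than the median window of the table (52.4%). Those of Bcl2l1 (47.6% to 53.2%) and Bax (54.0%) lay near that median. Those of Bak1 (58.4%), Hrk (63.2%), Mcl1 (64.4%) and Bcl2l2 (66.0%) lay in between.

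Mcl1 encodes a short-lived anti-apoptotic protein and was the most abundant member in both groups. It lies at chr3:95658788-95663176. Its level in CPM, reads of the gene relative to the TMM-scaled library size, was 229, 224 and 231 in undifferentiated replicates 1, 2 and 3 and 154, 149 and 161 in dexamethasone replicates 1, 2 and 3. All differentiated libraries lay below all undifferentiated ones. The log2 fold change was -0.56 ± 0.051 (SE, n = 3 libraries per group; edgeR adjusted p = 1.15e-10).

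Bcl2l1, whose main product is BCL-XL (chr2:152780668-152831728, minus strand), went the other way. Its CPM was 37.5, 35.4 and 37.0 in undifferentiated and 83.2, 93.1 and 92.2 in dexamethasone replicates 1, 2 and 3. The lowest differentiated library was far above the highest undifferentiated library. The log2 fold change was 1.29 ± 0.072 (SE, n = 3 per group; edgeR adjusted p = 2.62e-15). The BCL-XS form of the gene, which promotes death, cannot be told from BCL-XL in counts per gene.

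Bcl2, the founding member of the family (chr1:106538178-106714274, minus strand), was at 15.7, 15.9 and 17.0 CPM in undifferentiated and 32.1, 28.1 and 26.8 CPM in dexamethasone replicates 1, 2 and 3. The groups did not overlap, with the differentiated libraries spread more widely. Its log2 fold change was 0.85 ± 0.104 (SE, n = 3 per group; edgeR adjusted p = 3.41e-08).

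Bcl2l2 encodes BCL-W, an anti-apoptotic protein of neurons and testis (chr14:54883377-54888234). It was at 30.8, 36.1 and 33.6 CPM in undifferentiated and 29.2, 32.8 and 30.7 CPM in dexamethasone replicates 1, 2 and 3. The groups overlapped. The log2 fold change was -0.12 ± 0.089 (SE, n = 3 per group; edgeR adjusted p = 0.226), and its 95% interval allows a ratio of differentiated to undifferentiated between 0.813 and 1.05. Of its 4462 exon bases 594 are shared on the same strand with Gm20521, and reads there were not counted for either gene.

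Over the whole family, 5 members lay with every differentiated library above every undifferentiated library, as did 41.0% of tested genes, and 3 lay below, as did 38.9%.

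Both effectors fell. Bak1 (chr17:27019810-27029009, minus strand) was at 93.3, 84.8 and 87.0 CPM in undifferentiated and 32.7, 31.2 and 37.7 CPM in dexamethasone replicates 1, 2 and 3. The highest differentiated library was far below the lowest undifferentiated one. Its log2 fold change of -1.39 ± 0.075 (SE, n = 3 per group; edgeR adjusted p = 1.37e-15) was the largest fall among the members. Bax (chr7:45461697-45466898, minus strand) was at 53.6, 47.9 and 45.3 CPM in undifferentiated and 27.9, 30.7 and 29.2 CPM in dexamethasone replicates 1, 2 and 3. The groups did not overlap. Its log2 fold change was -0.74 ± 0.084 (SE, n = 3 per group; edgeR adjusted p = 7.36e-09). Of its 1576 exon bases 192 are shared with Gm45808 on the same strand and were not counted.

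The 3 expressed BH3-only members rose. Hrk (chr5:118164648-118189478), known for its restricted expression in neurons and other tissues, was at 11.7, 12.6 and 10.4 CPM in undifferentiated and 41.7, 42.2 and 45.0 CPM in dexamethasone replicates 1, 2 and 3. It had the largest change of any member, with the 3 libraries of each group close together. The log2 fold change was 1.88 ± 0.101 (SE, n = 3 per group; edgeR adjusted p = 1.29e-15), and 11.05% of tested genes changed more in either direction.

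Bbc3, which encodes PUMA (chr7:16308393-16318205), was at 10.2, 10.8 and 10.2 CPM in undifferentiated and 29.0, 32.0 and 36.8 CPM in dexamethasone replicates 1, 2 and 3. The undifferentiated libraries were nearly equal and the differentiated ones more widely spread. The log2 fold change was 1.63 ± 0.116 (SE, n = 3 per group; edgeR adjusted p = 5.84e-13).

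Bcl2l11, which encodes BIM (chr2:128126038-128162547), had few reads. Its counts were 38, 31 and 33 in undifferentiated and 90, 81 and 40 in dexamethasone replicates 1, 2 and 3, or 5.37, 3.95 and 5.36 against 9.97, 8.83 and 5.96 CPM. The groups did not overlap, but dexamethasone replicate 3 stood close to the undifferentiated libraries. The log2 fold change was 0.79 ± 0.206 (SE, n = 3 per group; edgeR adjusted p = 0.00107), with a 95% interval from 1.29-fold to 2.32-fold. Without dexamethasone replicate 3 it was 0.96.

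Pmaip1, which encodes NOXA, a partner of MCL1, was counted at 0 in all 6 libraries. It is annotated at 66458533 to 66465565 on chromosome 18, and its exon bases are shared with no other gene. A count of 0 allows up to 3 reads over a group, or 0.142 CPM in undifferentiated and 0.1201 CPM in differentiated cells, counting error only. No fold can be given.

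**Figure D2:**
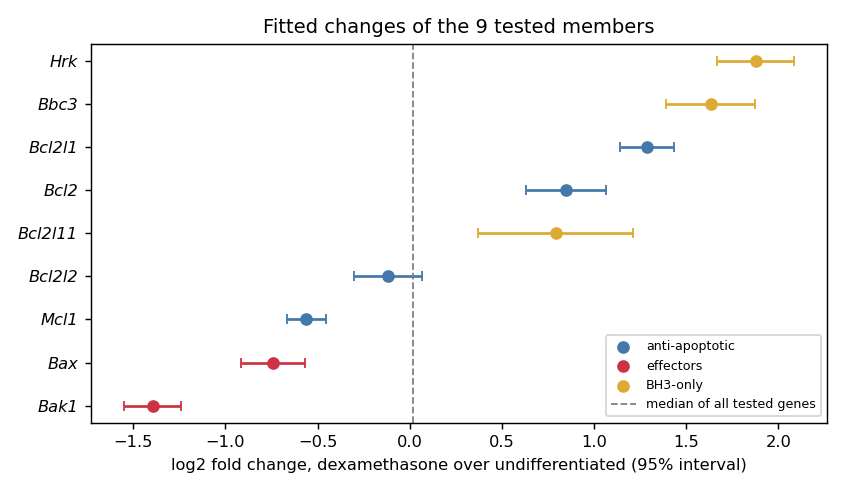
Fitted log2 fold change of the 9 tested members (horizontal axis, differentiated over undifferentiated) with 95% intervals from edgeR, coloured by role. The dashed line is the median of all tested genes, 0.02. The BH3-only genes lie to the right, the effectors to the left, and the anti-apoptotic genes on both sides.

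Levels of different members can be compared only per length, and they were set on the scale of CPM per kilobase of annotated exon. This scale counts all annotated exons of a gene, so a long exon that the cells use little lowers the value. In undifferentiated cells Mcl1 led at 66.5 ± 0.927, followed by Bak1 at 36.6 ± 1.83 and Bax at 31.0 ± 2.68 (mean ± SD, n = 3). Then came Bcl2l1 at 7.97 and Bcl2l2 at 7.49, whose ranges overlapped, Bbc3 at 4.89, and Hrk at 2.04 and Bcl2 at 1.77, whose ranges also overlapped. Bcl2l11 stood last of the expressed members at 0.608. The ranges of the other neighbours did not overlap.

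The order was different in differentiated cells. Mcl1 still led at 45.1 ± 1.64, but Bcl2l1 at 19.5 ± 1.19 had moved up to the level of Bax at 18.5 ± 0.900, and their ranges overlapped. Bbc3 at 15.3 ± 1.84 and Bak1 at 14.0 ± 1.41 also overlapped, as did Hrk at 7.55 and Bcl2l2 at 6.91. Bcl2 at 3.16 and Bcl2l11 at 1.03 stood below them. Places in this order depend on the lengths used. With exon bases shared with another gene left out, Bax was at 21.1 in differentiated cells, above Bcl2l1. Bcl2l2 was then at 8.64 in undifferentiated cells, above Bcl2l1, and at 7.97 in differentiated cells, above Hrk.

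The makeup of the 10 members changed with these levels, which is given here as a description with no test. Other family genes with reads were left out of it. The effector-like Bok was at 72.3 and 60.1 CPM in undifferentiated and dexamethasone cells (means). The BH3-only genes Bad, Bid and Bmf were at 32.5 and 37.3, 18.3 and 31.9, and 6.38 and 21.9 CPM. The summed per-length level of the members was 164, 156 and 157 in undifferentiated and 126, 130.2 and 137 in dexamethasone replicates 1, 2 and 3. The effectors held 44.4%, 41.9% and 41.3% of it in undifferentiated libraries and 24.7%, 24.9% and 24.9% in differentiated ones. The BH3-only members held 4.59%, 4.99% and 4.65% against 17.6%, 18.1% and 19.0%. The anti-apoptotic share was 52.7% ± 1.54 and 57.0% ± 0.841 (SD, n = 3), a small shift beside the other groups of genes. In summed level the effectors went from 67.6 to 32.6 and the anti-apoptotic members from 83.7 to 74.7, both without overlap. The BH3-only members went from 7.54 to 23.9 (means, n = 3).

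Ratios of per-length levels were computed in each library from the 10 members alone, and none of these groups overlapped. The ratio of anti-apoptotic to effector transcripts was 1.15, 1.27 and 1.31 in undifferentiated and 2.34, 2.29 and 2.25 in dexamethasone replicates 1, 2 and 3. The ratio of BH3-only to anti-apoptotic transcripts was 0.0900 ± 0.00392 and 0.320 ± 0.0172 (SD, n = 3). The ratio of Bax to Bcl2, often used as an index of apoptotic priming, was 19.8, 17.5 and 15.4 in undifferentiated and 5.05, 6.35 and 6.33 in dexamethasone replicates 1, 2 and 3. Relative to the anti-apoptotic members, the effector members were thus lower and the BH3-only members higher in all 3 differentiated libraries. Transcript ratios are not protein ratios, which were not measured.

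Within the anti-apoptotic genes Mcl1 gave way to Bcl2l1. Mcl1 held 79.4% ± 0.516 of the anti-apoptotic level in undifferentiated and 60.4% ± 1.51 in differentiated cells (SD, n = 3), and Bcl2l1 9.52% ± 0.238 and 26.1% ± 1.26. The ratio of Mcl1 to Bcl2l1 went from 8.35 ± 0.154 to 2.32 ± 0.167 (SD, n = 3). Bcl2 stayed a minor part, at 2.11% and 4.24%. Among the BH3-only members Bbc3 held 64.9% ± 1.13 and 64.0% ± 2.64 (SD, n = 3), with overlapping groups, and Hrk 27.0% ± 1.76 and 31.7% ± 1.29.

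**Figure D3:**
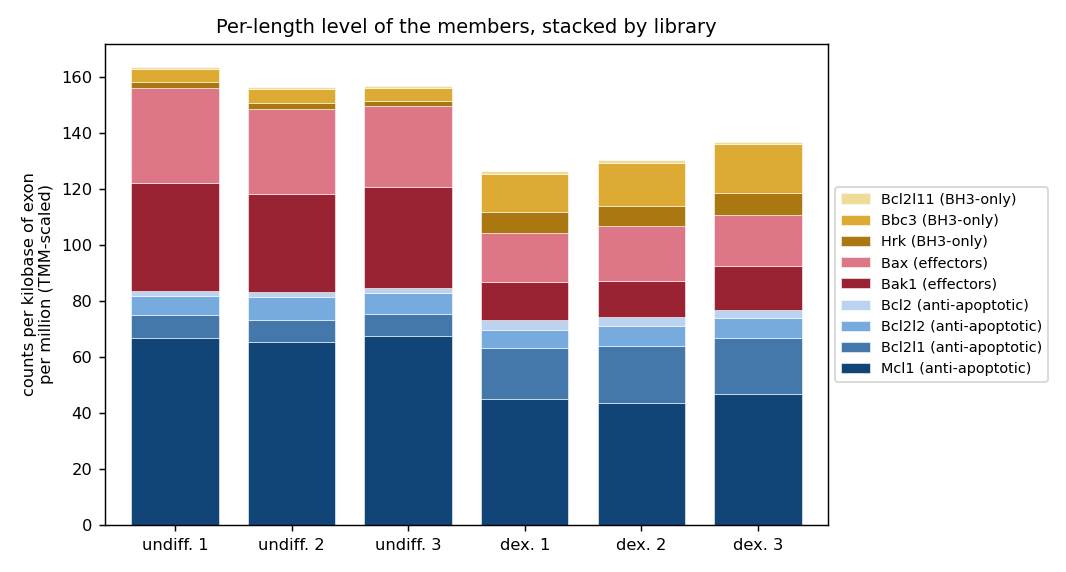
Stacked per-length levels of the 9 expressed members in each library (vertical axis, CPM per kilobase of exon, from 0). Blues are anti-apoptotic genes, reds effectors and yellows BH3-only genes. The red part is smaller and the yellow part larger in all 3 differentiated libraries, and the Bcl2l1 part grows beside that of Mcl1.

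Genes whose values over the 6 libraries lay closest to those of Hrk were Shank3, a scaffold of excitatory synapses (root mean square difference of centred log2 CPM 0.033), Itpr2, a calcium channel of the endoplasmic reticulum (0.046), and Brd3os (0.049). Those closest to Bak1 were Tbrg4 (0.045), Sf3a2, a splicing factor subunit (0.054), and Ybx3, an RNA-binding protein (0.055). They were picked as the nearest of 11368 genes, and with 2 groups of 3 libraries likeness rests mostly on the difference between the groups.

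Counts for the 6 lists of other genes below stand beside the 40.3% of all tested genes called higher and the 38.6% called lower; with 7 to 19 tested genes a list, no list is called particular from its count. Further family genes that are not among the 10 were read from a list of 15, of which 8 had enough reads to test. Of these 5 rose and 2 fell, with a median log2 fold change of 0.50. Bmf, a BH3-only gene whose protein binds dynein light chain, rose from 6.38 ± 1.02 to 21.9 ± 0.795 CPM (SD, n = 3). Its log2 change was 1.76 ± 0.138 (SE), with an adjusted p of 4.34e-12 by edgeR. Bnip3l, a mitophagy receptor with a BH3-like segment, rose 2.40-fold, from 24.9 ± 0.468 to 60.0 ± 1.29 CPM (SD, n = 3). The other 3 that rose, named after their values were seen, were Bid, which links death receptors to mitochondria (1.75-fold), Bnip3 (1.84-fold) and Bad (1.15-fold). The call of Bad, a BH3-only gene under control of growth factor signalling, was lost in 6 of the 15 alternatives, DESeq2 and the fits without undifferentiated replicate 2 or 3 or dexamethasone replicate 2 among them. Bok, an effector-like gene, and Bcl2l13 were called lower at only 1.20-fold and 1.16-fold. Both calls were lost with library totals or upper quartile factors as the scale; that of Bok was also lost without undifferentiated replicate 1 (log2 fold change -0.17) or dexamethasone replicate 1 (-0.13), and with DESeq2. Bcl2l12 had a log2 change of -0.39 ± 0.295 (SE) and an adjusted p of 0.223 by edgeR, so it was not called, though it was without undifferentiated replicate 1 (-0.67).

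Downstream of the pore, 11 of 19 tested genes of the apoptosome and caspases fell and 6 rose, with a median log2 fold change of -0.37. Cycs, cytochrome c, which also carries electrons in respiration, fell from 142 ± 7.44 to 62.2 ± 2.87 CPM (SD, n = 3), or 2.28-fold. Birc5, survivin, a mitotic protein as well as an inhibitor of apoptosis, fell 21.5-fold. Casp9, the caspase that the apoptosome activates, rose from 18.4 ± 2.68 to 42.1 ± 3.00 CPM (SD, n = 3), or 2.27-fold. Casp8, the caspase of death receptors, rose 1.79-fold.

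Among 8 outer membrane channels and binding partners 6 fell and 1 rose (median -0.45); 2 were called higher with library totals or upper quartile factors. Vdac2, whose protein is known to hold BAK at the membrane, fell from 301 ± 7.08 to 197.9 ± 6.97 CPM (SD, n = 3). The dynein light chain genes, whose products tether BIM and BMF, moved apart. Dynll1 fell 2.42-fold and Dynll2 rose 1.70-fold.

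Among 8 genes of the turnover and control of MCL1 and BIM 5 rose and 1 fell (median 0.39). Trim17, a ubiquitin ligase for MCL1 that is known in neurons, rose from 0.547 ± 0.303 to 7.04 ± 1.03 CPM (SD, n = 3), or 12.1-fold by the fit (adjusted p = 8.79e-11 by edgeR), from a level of few reads. Huwe1, another ligase for MCL1, fell 1.28-fold. Btrc, which marks BIM for degradation, rose 2.55-fold.

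Of 12 tested transcription factors known to control members 7 rose and 5 fell (median 0.36). Foxo3 rose from 31.3 ± 1.48 to 124 ± 2.18 CPM (SD, n = 3), or 3.96-fold (adjusted p = 4.55e-20 by edgeR), beside the rises of Bcl2l11 and Bbc3, whose windows hold the FOXO letters shown above. Trp53 fell from 135 ± 10.5 to 73.1 ± 5.12 CPM (SD, n = 3), or 1.86-fold. Of its known targets among the members, Bax fell, Bbc3 rose and Pmaip1 had no read. E2f1 fell 2.47-fold, beside the rise of Bcl2l1, which has a window with an E2F motif. Atf4 rose 2.03-fold. Whether any of these factors acted on the members was not tested.

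On the death receptor list 2 of 7 tested genes rose and 2 fell (median 0.22). Tnfrsf1a, the main receptor of tumour necrosis factor, rose 1.76-fold, from 101 to 179 CPM, and Cflar, an inhibitor of caspase 8, 1.29-fold. Traf2 fell 1.48-fold and Fadd, the adaptor of caspase 8, 1.35-fold. With library totals or upper quartile factors 4 genes of this list were called higher.

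**Figure D4:**
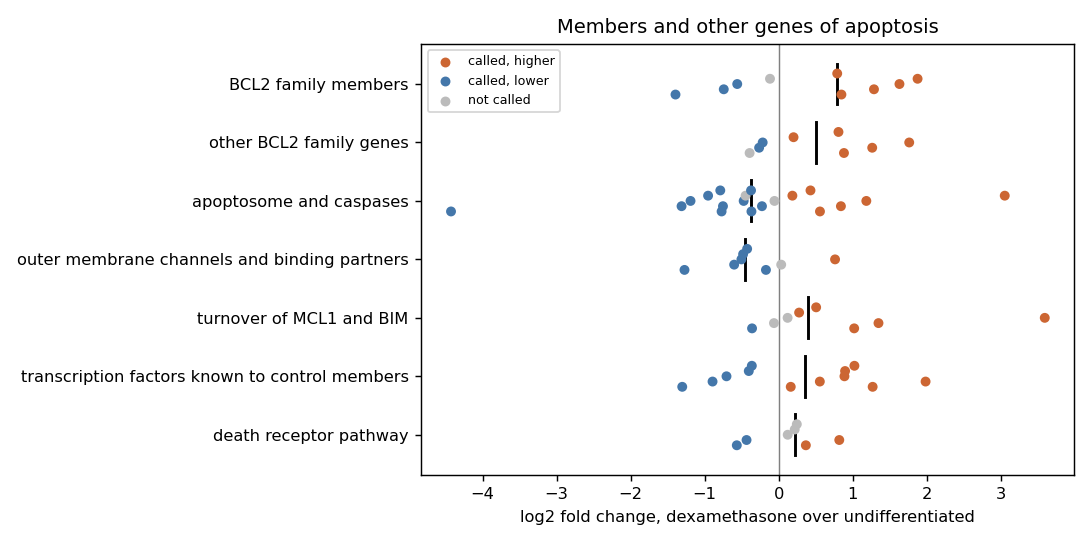
Log2 fold change (horizontal axis, differentiated over undifferentiated) of the 9 tested members and of the tested genes of 6 further lists, 1 point a gene. Orange and blue points were called higher and lower, grey points were not called, and black bars are list medians. Each list holds genes that rose and genes that fell, with Birc5 as the lowest point and Trim17 as the highest.

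The libraries held between 6411105 and 8757992 counted reads, and 3 reads were worth 0.343 to 0.468 CPM. All 10 markers of catecholaminergic neurons were tested, and 10 in undifferentiated and 9 in differentiated cells reached 1 CPM. The 10 summed to 3398 to 3473 CPM in undifferentiated and 11103 to 13156 CPM in differentiated libraries. A sum does not show how each marker changed. Markers of other cell types were low in both groups. The 5 blood and microglia markers summed to at most 0.848 CPM in any library, with Ptprc and Hba-a1 at 0 reads. The 6 glia markers summed to between 3.28 and 5.48 CPM, with Mog at 0 reads. The 4 endothelial markers summed to 18.3 to 21.3 CPM in undifferentiated and 33.4 to 35.7 CPM in differentiated cells, and the 5 fibroblast markers to 10.1 to 13.7 and 18.3 to 20.3 CPM. Their part in the changes of the members was not tested. In bulk RNA, less transcript per cell and fewer cells that make it cannot be told apart.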

How the data were processed

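The deposited values are raw read counts per gene, 1 table per library. The file headers name featureCounts 1.6.4, run by the authors on exons of Ensembl release 96 (GRCm38) with strand setting 1; multimapping reads and reads shared by genes were not counted. Tools in the submitters' processing notes are FastQC 0.11.9, HISAT2 2.2.0, Trim Galore 0.6.4, Subread 1.6.4 and DESeq2, with the build GRCm38.p6. Per the labels' protocols, each library began with 500 ng of RNA, amplified for 12 cycles and read at 75 bases. Groups came from the labels. Names came from GENCODE M21, which held all 55536 identifiers with the same start and end.

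After filterByExpr (minimum count 10, minimum total 15), 12664 genes were scaled by TMM. They were tested with edgeR 4.0.16 (glmQLFit, glmQLFTest, R 4.3.3), group being the only term. The step was tested on simulated data in which few genes changed, which cannot test the scaling where many genes change, as here. A standard error is the log2 fold change over the square root of F. Per-length levels use the exon lengths in the files. The members and lists were chosen with earlier results of these data known. Named were all members, from each list up to 2 called genes per direction with the smallest adjusted p and at least 1 CPM in a group, and the 3 genes nearest in pattern (pseudocount 0.5 CPM) to the member that rose most and the one that fell most. Within groups, libraries were no copies of each other (chi-square over degrees of freedom 1.69 to 3.34). Alternatives were other scale factors and filters, DESeq2 1.42.0, limma 3.58.1 (voom), a stricter threshold, each library left out and the replicate number as a block. Protein sequences, for a planned search of the BH3 motif, were not used here.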

Additional observations from a re-analysis of the deposited data

How the results depend on the processing

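The 5 members called higher and the 3 called lower were called in the same direction under all 15 alternatives run, and Bcl2l2 was called in none. TMM takes most genes as unchanged. Library totals alone and upper quartile factors moved the median log2 fold change of all tested genes from 0.02 to 0.14 and 0.12, and that of Bcl2l2 was 0.0081 with library totals, against -0.12; its other values lay between -0.17 and -0.02. Called genes then numbered 5802 higher and 4207 lower with library totals, against 5106 and 4891. With the replicate block 5017 genes were called higher and 4803 lower, 5 members among the former and 3 among the latter, and Bcl2l11 had a log2 fold change of 0.78 (edgeR adjusted p = 0.00186). No pairing by replicate number was seen. Same-numbered libraries' deviations from their group means correlated at -0.095, 0.036 and -0.071, and differently numbered ones at -0.041 to 0.105. With deviations from means of 3 libraries, such values cannot exclude pairing. Bcl2l11, with 31 to 90 reads a library, was the least certain call, at log2 fold changes of 0.64 to 0.96 and adjusted p up to 0.0135 over the alternatives. With exon bases shared with other genes left out, the per-length levels of Bax became 35.3 and 21.1 and those of Bcl2l2 8.64 and 7.97, which put Bax above Bcl2l1 and Bcl2l2 above Hrk in differentiated cells, and Bcl2l2 above Bcl2l1 in undifferentiated cells.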
